A study of Oryctolagus cuniculus with 6 samples.

Results

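The microRNAs miR-26a and miR-26b are close relatives that share a seed, the stretch near the 5′ end that pairs with target transcripts. Small RNA sequencing measured both in the extracellular vesicles of rabbit seminal plasma, which are membrane-enclosed particles shed by cells. The members were the rows named miR-26a or miR-26b, with both strands of each hairpin, and all 4 strands were found among 577 mature miRNAs listed. They are miR-26a-5p, miR-26b-5p, miR-26a-3p and miR-26b-3p. Only the 5p strands, 2 of 4 members, reached a level of 10 in at least 3 libraries, as did 234 miRNAs in all. The pair was chosen by name, with the levels of its guide strands and their Fertile against Sub-fertile difference in these same libraries in view. Its group differences are therefore given as a description and support nothing. Counts of members past the threshold of the fit across all miRNAs stand beside the share of all miRNAs past it, and nothing is read from them.

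Vesicles came from California and New Zealand white cross bucks aged 10 to 12 months, all without any stated treatment. Of 14 males, each sampled for 8 ejaculates in 1 month, 3 were picked for high semen quality and 3 for low, and the libraries are labelled Fertile and Sub-fertile (n = 3 each). The split thus rests on semen quality, and no record of fertility was used here. Each library is described as a biological replicate made from 2.5 mL of seminal plasma, and whether 1 replicate is 1 male was not stated.

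As background, miR-26 is a broadly expressed family whose genes in human and mouse lie in introns of genes for small phosphatases that act on the tail of RNA polymerase II (CTDSP1, CTDSP2 and CTDSPL). In human cells miR-26a represses EZH2, the enzyme that places the repressive H3K27 methyl mark. The 5p strand is the guide that enters the silencing complex, and the 3p strand is the passenger that is mostly degraded. In the RefSeq table of the rabbit assembly mOryCun1.1, an assembly other than the one the submitters name, used here for gene names and neighbours only, MIR26B lies within CTDSP1 and MIR26A within CTDSP2. That table lists 1 gene of each name, and no miRNA gene within CTDSPL or CTDSPL2.

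The libraries held between 129387 and 772619 recovered counts, with Sub-fertile replicate 1 the shallowest. That library also stood apart from the other 5 on the first principal component of all tested miRNAs, at 15.98 against -5.52 to -0.11, a component with 40.5% of the variance. The group differences of the guide strands and their correlations are also given without it. Within-group SDs on the log2 scale and the comparison of relatives that differ by letter were run with it only. Vesicles carry no single defining miRNA, so the source was described by fixed marker lists, summed per library on the deposited scale of CPM, counts scaled by library depth. Of 5 epithelial markers 2 were listed (miR-200c-3p and miR-141-3p), with Fertile sums of 84039 to 91827 and Sub-fertile sums of 76557 to 122490. The 4 germ and ciliated cell markers gave Fertile sums of 1221 to 1728 and Sub-fertile sums of 1611 to 15767, the highest in Sub-fertile replicate 1. The 5 leukocyte markers summed to 251.9 to 595.5 and 323.6 to 699.4. Red blood cell markers, 3 of 4 listed and miR-144-3p at 0, summed to 12.0 to 37.1 and 6.2 to 20.4. Striated muscle markers, with miR-133a-3p and miR-133b-3p at 0 in every library, gave Fertile sums of 11.6 to 60.0 and Sub-fertile sums of 181.1 to 268.0. That difference came from miR-206-3p alone, with means of 15.3 in Fertile and 214.5 in Sub-fertile. Means of the other detected marker, miR-1-3p, were 18.3 and 12.7. The part of these cell types in the results below was not tested.

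In the vesicles of seminal plasma miR-26a-5p was one of the main miRNAs and miR-26b-5p a lesser one. By mean over 6 libraries, miR-26a-5p ranked 11 of 577 with 30434 ± 7963 (SD, n = 6), or 3.04% ± 0.733 of recovered counts, and miR-26b-5p ranked 29 with 6393 ± 1575, or 0.652% ± 0.227. Both passenger strands were near the floor, at rank 252 for miR-26b-3p and rank 293 for miR-26a-3p. The 5p strands were above the 3p strands, and miR-26a-5p above miR-26b-5p, in 6 of 6 libraries. The mean levels of the 3p strands were 6.53 ± 4.67 for miR-26b-3p and 2.44 ± 2.79 for miR-26a-3p (SD, n = 6), a spread that mixes both groups. Within a library miR-26b-3p was never below miR-26a-3p, on at most 8 counts, with equal counts in Sub-fertile replicates 1 and 3.

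For miR-26a-5p, the more abundant guide strand, the deposited levels were 26036, 25105 and 24120 in Fertile replicates 1, 2 and 3. In Sub-fertile replicates 1, 2 and 3 they were 28806, 33326 and 45213. All 3 Sub-fertile libraries lay above all 3 Fertile libraries, the lowest by a narrow margin, and Sub-fertile replicate 3 stood highest. The Fertile mean was 25087 ± 958 and the Sub-fertile mean 35781 ± 8475 (SD, n = 3 each). The spread was 3.82% of the mean in Fertile and 23.7% in Sub-fertile. The log2 change, Sub-fertile minus Fertile, was 0.49 (SE 0.20), or 1.40-fold.

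For miR-26b-5p the deposited levels were 4859, 5010 and 5165 in Fertile replicates 1, 2 and 3. In Sub-fertile replicates 1, 2 and 3 they were 8530, 7254 and 7541. Here too the groups did not overlap, and on the deposited scale the gap between them was wider than the range within either group. Group means were 5011 ± 153 and 7775 ± 669 (SD, n = 3 each), with a log2 change of 0.63 (SE 0.16), or 1.55-fold. The highest Sub-fertile library for miR-26b-5p was replicate 1, which was the lowest for miR-26a-5p.

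**Figure D1:**
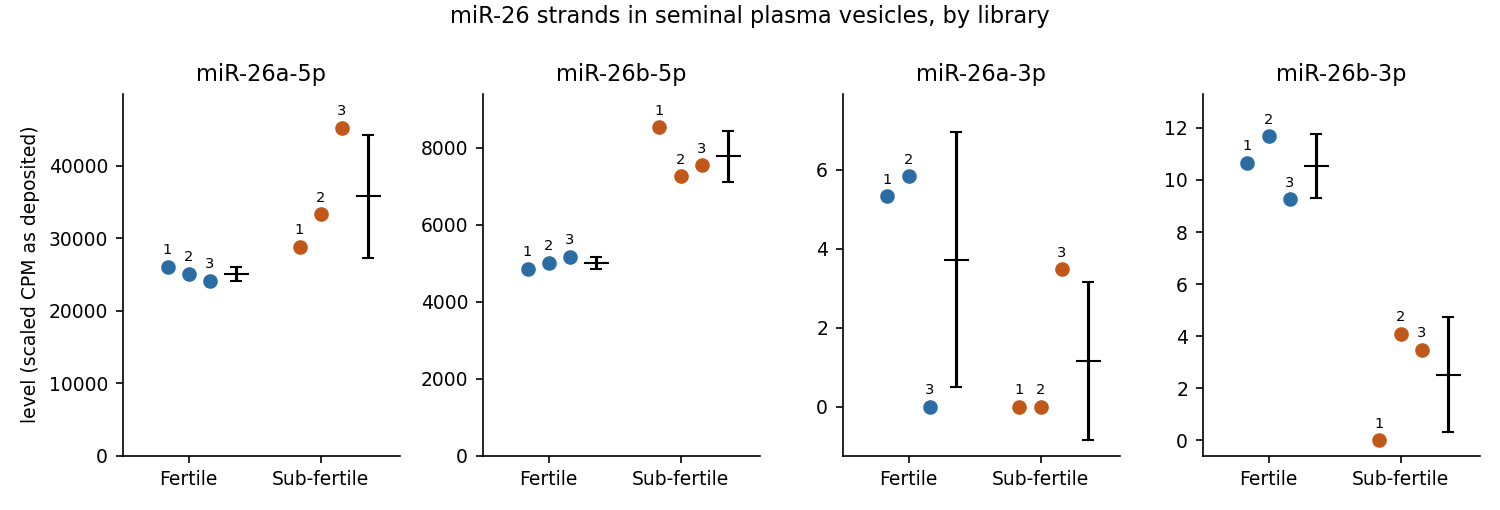
Level of each miR-26 strand in each library, on the deposited scale of scaled CPM, with replicate numbers beside the points and the group mean ± SD (n = 3) as black bars. Both 5p strands are higher in every Sub-fertile library than in any Fertile library, while the 3p strands stay below 12; each panel has its own axis.

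Across all miRNAs tested, 22 were higher in Sub-fertile with no overlap between the groups, a background of 9.4%, and both tested members were among them. By the fit across all miRNAs (limma, Benjamini-Hochberg adjusted p under 0.05), 8 of 234 passed, a background of 3.42%, and 0 of 2 tested members did. Both counts use the contrast that brought the pair forward, and nothing is read from them. Over all 234 the log2 change had a median of -0.10, with quartiles at -0.52 and 0.32. Of the 234, 28 had a larger change than miR-26b-5p and 41 a larger one than miR-26a-5p, and these were mostly of low level.

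Among the 65 tested miRNAs with a mean of at least 1000, 3 had a larger change than miR-26b-5p. They were miR-34c-5p (1.57, SE 0.77), miR-449a-5p (1.43, SE 0.58) and miR-135a-5p (0.81, SE 0.23), and were named after their values were seen. The first pair, known from testis and ciliated cells, was far more variable, with within-group SDs of 1.33 and 0.98 on the log2 scale. For miR-26b-5p this SD was 0.092 on the deposited scale, which lowers Sub-fertile replicate 1, against a median of 0.287 over the 65. Smaller SDs were found for 3 of them, miR-29c-3p (0.077), miR-425-5p (0.079) and miR-99a-5p (0.066), also named after the fact, whose log2 changes were 0.06, -0.28 and -0.15. The SD of miR-26a-5p was 0.238, and 29 of the 65 had a smaller one.

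**Figure D2:**
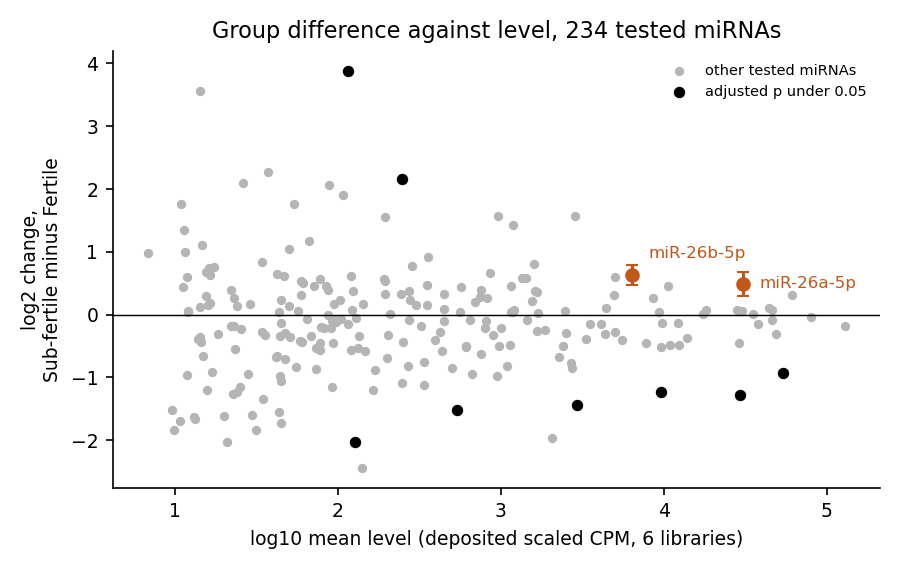
Log2 change, Sub-fertile minus Fertile, against the log10 mean level for the 234 tested miRNAs. The orange points with SE bars are the miR-26 guide strands at 0.49 and 0.63, black points are the 8 miRNAs past an adjusted p of 0.05 (limma), and low miRNAs on the left scatter most.

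As a share of recovered counts, miR-26a-5p took 2.53% (95% exact Clopper-Pearson interval 2.49 to 2.56), 2.41% (2.37 to 2.45) and 2.29% (2.25 to 2.34) in Fertile replicates 1 to 3. In Sub-fertile replicates 1 to 3 it took 3.57% (3.46 to 3.67), 3.37% (3.30 to 3.44) and 4.08% (4.03 to 4.13). These intervals hold counting error only and not the spread between samples, so they do not bear on the difference between the groups. For miR-26b-5p the shares were 0.472% (0.457 to 0.487), 0.480% (0.462 to 0.499) and 0.491% (0.471 to 0.512) in Fertile replicates 1 to 3. In Sub-fertile replicates 1 to 3 they were 1.06% (1.00 to 1.11), 0.734% (0.700 to 0.768) and 0.680% (0.660 to 0.701). The Fertile intervals overlapped each other, so at this depth no difference among those libraries was detectable for miR-26b-5p, while the shallowest Sub-fertile library stood above the other 2. Together the guide strands held 2.89% ± 0.107 of Fertile and 4.50% ± 0.346 of Sub-fertile counts (SD, n = 3 each). A larger share of counts and more molecules per vesicle cannot be told apart in these data, nor can a change in the number of vesicles per mL.

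The rank of both guide strands within a library moved with the group. For miR-26a-5p the rank was 14, 15 and 15 in Fertile replicates 1 to 3 and 10, 10 and 9 in the Sub-fertile ones. For miR-26b-5p the Fertile ranks were 32, 31 and 31 and the Sub-fertile ranks 21, 27 and 28. A rank is not touched by the scaling of a library. In each case the Sub-fertile libraries stood nearer the top than any Fertile one.

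Scaling changed the order and the spread of the Sub-fertile libraries, while the groups did not overlap on either scale. The deposited values carry a factor per library that lowers Sub-fertile replicate 1 (1.24) and raises Sub-fertile replicate 3 (0.902). On plain CPM, without that factor, miR-26a-5p stood at 35653, 33704 and 40796 in Sub-fertile replicates 1 to 3, against 22946 to 25282 in Fertile. On that scale miR-26b-5p stood at 10557, 7336 and 6805, against 4718 to 4913 in Fertile. Its gap between the groups was then narrower than its Sub-fertile range. Sub-fertile shares of recovered counts averaged 3.67% ± 0.366 for miR-26a-5p and 0.823% ± 0.203 for miR-26b-5p (SD, n = 3). Without the factor, miR-26b-5p was thus the less steady of the guide strands in Sub-fertile. The median log2 change of all miRNAs moved from -0.10 to 0.02 with plain CPM. Relative to that median, the change was 0.58 for miR-26a-5p and 0.73 for miR-26b-5p on both scales. This was so by construction, as a factor per library shifts every log2 change by nearly the same amount.

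The balance between the relatives, which does not depend on the scaling, ranged more widely over the Sub-fertile libraries than over the Fertile ones. The ratio of miR-26a-5p to miR-26b-5p was 5.36, 5.01 and 4.67 in Fertile replicates 1 to 3 and 3.38, 4.59 and 5.995 in Sub-fertile replicates 1 to 3. The Sub-fertile libraries thus spanned the whole Fertile range on both sides. Its Fertile mean was 5.01 ± 0.344 and its Sub-fertile mean 4.66 ± 1.31 (SD, n = 3 each), so the group means differed by less than the spread of the Sub-fertile libraries. Put as a share of the pair, miR-26b-5p made up 22.8% (95% exact interval 21.8 to 23.9) in Sub-fertile replicate 1, 17.9% (17.1 to 18.6) in replicate 2 and 14.3% (13.9 to 14.7) in replicate 3. In Fertile replicates 1 to 3 the share was 15.7% (15.3 to 16.2), 16.6% (16.1 to 17.2) and 17.6% (17.0 to 18.3). The 3 Sub-fertile intervals did not overlap, nor did those of Fertile replicates 1 and 3, and they cover counting error only.

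**Figure D3:**
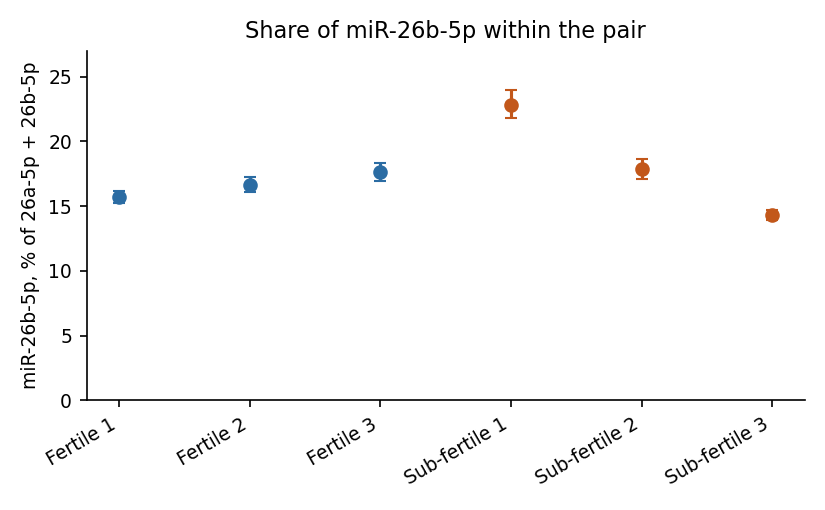
Share of miR-26b-5p in the sum of both guide strands, in percent, for each library, with 95% exact intervals that cover counting error only. Fertile libraries (blue) lie between 15.7% and 17.6%, and Sub-fertile ones (orange) run from 22.8% in replicate 1 to 14.3% in replicate 3.

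The change of miR-26b-5p exceeded that of miR-26a-5p by 0.14 on the log2 scale, and this sign rested on Sub-fertile replicate 1, without which it was -0.068. Without that library the log2 change was 0.63 (SE 0.15) for miR-26a-5p and 0.56 (SE 0.15) for miR-26b-5p. Sub-fertile means were then 39269 ± 8405 and 7398 ± 203 (SD, n = 2). Without Sub-fertile replicate 3, the change of miR-26a-5p was 0.31 (SE 0.16) and that of miR-26b-5p was 0.65 (SE 0.16), which moved the first by more than 1.5 times. Sub-fertile replicate 3 also held the highest epithelial sum (122490) and Sub-fertile replicate 1 the highest germ and ciliated cell sum (15767). The part of these cell types in the balance was not tested. The sources used here do not give how reads matching both miR-26a and miR-26b were assigned, so the split between them is uncertain.

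The passenger strands were almost absent. Recovered counts of miR-26b-3p were 8, 6 and 4 in Fertile replicates 1 to 3 and 0, 1 and 2 in Sub-fertile replicates 1 to 3. On the deposited scale the Fertile values were 10.7, 11.7 and 9.27 and the Sub-fertile values 0, 4.08 and 3.48. The groups did not overlap, with Fertile the higher, the opposite order to its guide strand. This strand was below the filter, and 16.2% of the tested miRNAs were lower in Sub-fertile without overlap. However, a count of 0 in Sub-fertile replicate 1 allows up to 3 counts, or 18.7 units, which is above every Fertile value. Over summed counts, 18 in Fertile and 3 in Sub-fertile, the depth-adjusted ratio of Sub-fertile to Fertile was 0.288 (95% exact counting interval 0.054 to 0.988).

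Counts of miR-26a-3p were 4, 3 and 0 in Fertile replicates 1 to 3 and 0, 0 and 2 in the Sub-fertile ones, and the groups overlapped. The floor for a count of 0 was 6.95 units in Fertile replicate 3 and 12.3 in Sub-fertile replicate 2, above any value seen. The ratio of Sub-fertile to Fertile was 0.495 (counting interval 0.050 to 2.60), so no difference was detectable at this depth.

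Strand bias was strong for both hairpins and, over pooled counts, stronger for miR-26a. Over all libraries, 81597 counts of miR-26a-5p stood against 9 of miR-26a-3p, a 3p share of 0.0110% (95% exact interval 0.0050 to 0.0209). For miR-26b, 15924 counts of the 5p strand stood against 21 of the 3p strand, a share of 0.132% (0.082 to 0.201). The pooled intervals of the 2 hairpins did not overlap. In Fertile the 3p share was 0.0163% (0.0066 to 0.0337) for miR-26a and 0.213% (0.126 to 0.336) for miR-26b. In Sub-fertile it was 0.0052% (0.0006 to 0.0186) and 0.0401% (0.0083 to 0.117), and these intervals overlapped, on 2 and 3 counts of the 3p strands. Of 85 hairpins with both strands listed and at least 1000 counts, miR-26a ranked 8 and miR-26b ranked 32 by the size of their strand bias, in either direction.

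Relatives that share a number and strand and differ by letter gave a yardstick, chosen after the data were examined. There were 35 such pairs in 8 families with a mean of at least 1000 for both. The log2 ratio of miR-26b-5p to miR-26a-5p had an SD over 6 libraries of 0.28, ranking 15 from the steadiest, against a median of 0.33 over the pairs. The steadiest were miR-30b-5p with miR-30c-5p (0.12), miR-509a-3p with miR-509b-3p (0.13) and let-7a-5p with let-7c-5p (0.13). The most uneven were miR-30c-5p with miR-30e-5p (0.77), miR-30a-5p with miR-30c-5p (0.74) and miR-30b-5p with miR-30e-5p (0.70). Within groups, the SD for miR-26 was 0.10 in Fertile and 0.41 in Sub-fertile, against medians of 0.11 and 0.35 over the pairs. The Sub-fertile SD was the larger in 33 of the 35 pairs, so the wider range was not particular to miR-26. These SDs include Sub-fertile replicate 1, and the part of that library in them was not tested. For the difference in group change, the miR-26 pair ranked 6 from the smallest of 35, at 0.14 against a median of 0.34. Both relatives were higher in Sub-fertile without overlap in 2 of the 35 pairs, the other being let-7g-5p with let-7i-5p (0.37 and 0.61). Pairs of 1 family share members and are not independent.

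**Figure D4:**
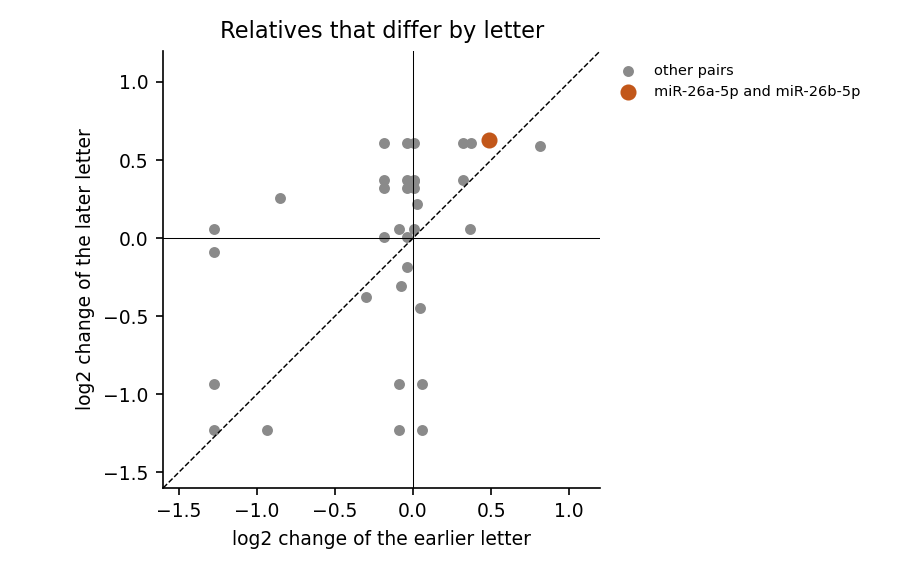
Log2 change, Sub-fertile minus Fertile, of both relatives in each of 35 pairs that differ by letter, with equal change on the dashed line. The miR-26 pair (orange) lies at 0.49 and 0.63, near the line and in the upper right, and many other pairs lie close to 0 in at least one relative.

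The miRNAs whose log2 levels followed the guide strands most closely over the 6 libraries were different for each. For miR-26b-5p they were let-7i-5p (r = 0.98), miR-33a-5p (0.97), miR-146a-5p (0.96), let-7g-5p (0.95) and miR-143-3p (0.94), all higher in every Sub-fertile library. Of these, let-7i-5p, of a family that times development, stood at 3976 ± 197 in Fertile libraries and at 6103 ± 1042 in Sub-fertile ones (SD, n = 3 each). Levels of miR-143-3p, a smooth muscle miRNA, were low, at 1.09 ± 1.00 and 27.5 ± 24.9. It passed the filter only through the Sub-fertile libraries, so its lack of overlap was fixed by the filter. Nothing is read from that or from its r. For miR-26a-5p they were miR-135b-5p (r = 0.97), miR-29b-3p (0.96), miR-10a-3p (0.95), miR-1298-5p (0.93) and miR-148b-3p (0.92). Of these, miR-29b-3p, known for repressing collagen transcripts, went from 1446 ± 87 to 1870 ± 242, and miR-1298-5p from 8738 ± 1373 to 12527 ± 4760.

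Between miR-26a-5p and miR-26b-5p themselves r was 0.68 (Spearman 0.60), and 26 miRNAs were closer to each. Without Sub-fertile replicate 1 it was 0.92, and over deviations from the group means it was -0.59. These r values describe 6 points that share library depth and scaling and that fall into the 2 groups. Without Sub-fertile replicate 1, 2 of the 5 names stayed among the closest 5 for each guide strand, and 3 of the 5 stayed for miR-26b-5p by Spearman rank. By deviations from the group means, 0 of the 5 stayed for either, as other miRNAs came closer. The r of the same names over those deviations ran from 0.87 to 0.95 with miR-26a-5p. With miR-26b-5p it ran from 0.41 (miR-146a-5p) to 0.97 (let-7i-5p).

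Among miRNAs that MYC, a growth-promoting transcription factor, lowers in human and mouse lymphoma models, a group that includes both guide strands, 23 of 23 listed were tested. Leaving out the miR-26 guide strands, 12 of 21 had a positive change, against 104 of 234 over all miRNAs tested. Of the 23, 1 rose and 2 fell (limma adjusted p under 0.05, against 0.855% and 2.56% of all tested miRNAs). The one that rose was miR-146a-5p, induced by inflammatory signalling, with a log2 change of 2.15 (SE 0.33), and those that fell were miR-30d-5p (-0.94, SE 0.19) and miR-30e-5p (-1.23, SE 0.26). The most abundant others were let-7a-5p (-0.04, SE 0.27), let-7f-5p (0.32, SE 0.23) and miR-29a-3p (0.01, SE 0.25). The median log2 change of the 21 others than miR-26 was 0.01, against -0.10 over all miRNAs tested.

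Other miRNAs known to repress EZH2 in human cells were measured beside them. Of 8 listed, 4 were tested, both miR-26 guide strands included, and 0 passed (limma, 0 of 4 against a background of 3.42%). Levels of miR-101-3p, the best known of them, were 2814 ± 209 in Fertile libraries and 2029 ± 471 in Sub-fertile ones (SD, n = 3 each), with a log2 change of -0.50 (SE 0.22), the opposite sign to miR-26. The other was let-7a-5p, given above. Below the filter, miR-138-5p stood at 1.22 ± 1.16 and 1.16 ± 2.01, and miR-214-3p, miR-124-3p and miR-217-5p were listed at 0 in every library.

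**Figure D5:**
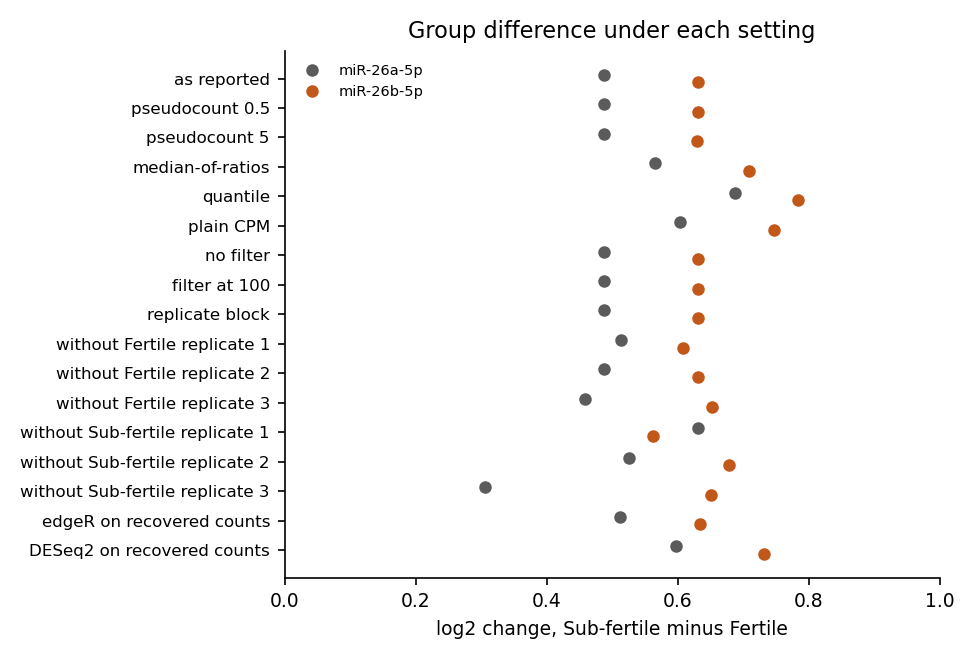
Log2 change of miR-26a-5p (grey) and miR-26b-5p (orange), Sub-fertile minus Fertile, as reported and under each of 16 alternatives. All values are above 0, from 0.31 to 0.69 for miR-26a-5p and 0.56 to 0.78 for miR-26b-5p, and the order of the members turns without Sub-fertile replicate 1. Changes of filter or pseudocount, the replicate block and leaving out 1 library could not turn the sign.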

How the data were processed

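Small RNA libraries of 3 Fertile and 3 Sub-fertile replicates were grouped by the labels. Per the labels' protocols, vesicles were isolated by ultracentrifugation and size exclusion chromatography and the QIAseq miRNA kit served for library preparation. The submitters' processing notes name bcl2fastq, Bowtie2 2.2.2, DESeq2 and the build OryCun2.0 without saying what each did. The authors deposited 1 normalized signal per miRNA and library, which they named CPM. Every deposited signal was an integer multiple of its library's smallest value (100% of values, off by at most 1.46e-11), so whole counts were recovered. The scaling factors implied by the column totals equal edgeR's TMM factors, which is an inference and not a stated step. The sources used here do not say if reads or unique molecular identifiers were counted, and intervals and floors (3 counts) cover counting error only.

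Values were used as deposited. The fit across all miRNAs was limma 3.58.1 (R 4.3.3) on log2(value + 1) with a mean-variance trend, as a two-sided test of miRNAs that reached 10 in 3 or more libraries, with Benjamini-Hochberg adjustment at 0.05. The pseudocount understates changes of low miRNAs. Exact Clopper-Pearson intervals came from scipy 1.17.1. Members and lists were chosen with earlier results of these data known. Named miRNAs are the 4 members, the 5 closest to each guide strand by Pearson r, list members past the threshold with up to 3 others by level, and the 3 steadiest and 3 most uneven pairs. Pairs by shared seed were planned; pairs by letter replaced them. Replicates of the same group were compared by chi-square on counts, with 20.7 per degree of freedom as the lowest value. None was thus a duplicate of another in its group, and libraries of different groups were not compared in this way. Alternatives included edgeR 4.0.16 and DESeq2 1.42.0 on recovered counts, which called 8 and 17 miRNAs. Scripts were tested on simulated data.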

Additional observations from a re-analysis of the deposited data

How the results depend on the processing

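Both guide strands were higher in Sub-fertile vesicles under all 16 alternatives run, but for most of them the sign was fixed in advance. A change of filter and the replicate block leave the log2 changes as they were by construction. As the groups did not overlap, neither another pseudocount nor leaving out 1 library can turn the sign. Each log2 change was judged against the within-group SD of its own strand, 0.238 for miR-26a-5p and 0.092 for miR-26b-5p. By that measure the log2 change of miR-26a-5p stayed within the spread between replicates (0.31 to 0.63 with 1 library left out). It went from 0.49 to 0.69 with quantile normalization and to 0.60 with plain CPM. That of miR-26b-5p moved beyond its own, smaller SD with quantile normalization (0.78), plain CPM (0.75) and DESeq2 (0.73). It ran from 0.56 to 0.68 with 1 library left out. As the SDs differ, these labels do not show which strand moved further. The excess of miR-26b-5p over miR-26a-5p ran from -0.068 to 0.35 with 1 library left out, and -0.068 came without Sub-fertile replicate 1. The number of tested members past the threshold, 0 as reported, was 1 with median-of-ratios scaling (miR-26b-5p), 1 with quantile normalization (miR-26a-5p), 1 with a filter at 100 (miR-26b-5p), 1 with DESeq2 (miR-26b-5p), and 0 to 2 with 1 library left out, the 2 coming without Sub-fertile replicate 1. Over all miRNAs, 8 passed as reported, 5 with quantile normalization, 14 with a filter at 100, where 131 were tested, and 17 with DESeq2 (10 higher and 7 lower, against 2 and 6). With 1 library left out 3 to 39 passed, 39 without Sub-fertile replicate 1, 3 without any 1 Fertile library and 5 without Sub-fertile replicate 2. Apart from the smaller number tested at a filter of 100, the cause was not tested.

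Blocking on replicate number left 0 miRNAs past the threshold by limma, with 43 under an unadjusted p of 0.05, and the log2 changes of 0.49 and 0.63 were the same by construction. Deviations of same-numbered libraries from their group means correlated at 0.05, -0.12 and 0.10, so the numbers were not taken to pair the samples. With DESeq2 the median change of all miRNAs was 0.06, and relative to it miR-26a-5p stood at 0.54 and miR-26b-5p at 0.67. The ratio of miR-26a-5p to miR-26b-5p, 4.83 over 6 libraries, ran from 4.60 to 5.13 with 1 left out. Depth limits the 3p strands, where 1 count is worth 6.24 units in Sub-fertile replicate 1. Pairs by shared seed were not run.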
